A study of Mus musculus with 12 samples.

Results

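Aldh1l1, Slc1a3, Slc1a2, Gfap, Aqp4, Fabp7, Sox9, Glul, Vim and Nfia are 10 genes used to recognise astrocytes and radial glia, chosen by name out of 21951 protein-coding mouse genes. Histone H3 lysine 27 acetylation (H3K27ac), a mark of active promoters and enhancers, and lysine 27 trimethylation (H3K27me3), a mark laid down by Polycomb at silent or poised genes, were followed at these genes in 2 cell populations of the mouse cortex at postnatal day 2. Cortices were taken from Gad67-GFP heterozygote pups, in which GFP marks GABAergic cells, and were pooled from 2 to 3 litters. Sorted GFP-positive cortical interneurons (CINs) were compared with the GFP-negative cells of the same dissociated tissue (non-CINs, a mixture that holds glutamatergic projection neurons and glia). Both populations thus shared the allele, the mixed background outcrossed to CD-1, the age and the papain dissociation. Each mark was measured by native chromatin immunoprecipitation after MNase digestion in 2 replicates per population, which gave 8 deposited peak lists, and 4 input samples without a peak list served the study as controls. For every gene the window ran from 5 kb upstream of the start of its gene record to its end on mm10, and 3 values were taken from each list: the number of peaks, the length covered by peaks, and the percentile of the strongest peak by fold enrichment over input among all peaks of that list.

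Radial glia are the stem cells that line the ventricle of the developing cortex, and around birth they stop making neurons and turn into astrocytes. Both cell types share intermediate filaments, fatty acid binding proteins and the transcription factors SOX9 and NFIA, which open the astrocyte program, while the water channel and other genes of mature astrocytes are switched on as the cells differentiate. Astrocytes take up glutamate released at synapses, convert it to glutamine and hand it back to neurons.

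The H3K27ac lists held 46040 to 62505 peaks covering 40.8 to 56.3 Mb, and the H3K27me3 lists held 36662 to 45081 peaks covering 34.5 to 49.8 Mb. Read depth is unknown, since the lists give no read counts, and intervals therefore carry no counting error. They rest on the spread between lists, moderated toward a variance trend over all genes. The sort was visible in the lists: of 9 interneuron markers, 8 had an H3K27ac peak in both CIN lists, whereas 2 and 1 had a peak in the non-CIN lists, and their summed H3K27ac length was 70622 and 56581 bp in the CIN lists against 434 and 652 bp in the non-CIN lists. Lhx6 had no H3K27ac peak in any list. Projection neuron markers were poorly covered in both populations (6876 to 13960 bp of H3K27ac summed over 8 genes), and Neurod2 and Slc17a7 had no H3K27ac peak. Microglial and vascular genes were also marked in both populations: 3 of 6 microglial genes had a peak in each list, with 12878 and 11572 bp in the CIN lists against 18169 and 15328 bp in the non-CIN lists. The 6 endothelial and pericyte genes summed to 17205 and 10911 bp against 20249 and 16630 bp. Aif1, Tmem119, C1qa, Cldn5 and Kdr had no H3K27ac peak. Oligodendrocyte lineage genes summed to 16668 to 19056 bp in the 4 lists. The part of these other cells in the results below was not tested, and because the populations are bulk samples, fewer cells of a type and less of the mark per cell cannot be told apart.

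**Figure D1:**
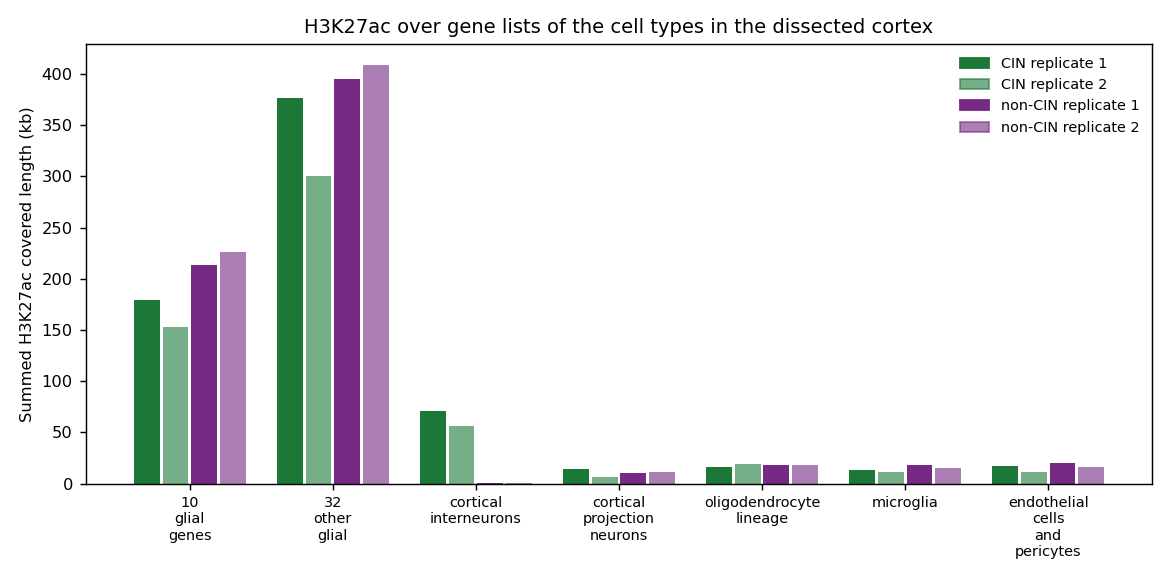
Summed H3K27ac covered length in kb (vertical axis, from 0) over the windows of 7 gene lists, with 1 bar for each of the 4 lists (CINs green, non-CINs purple, replicate 2 lighter). The interneuron markers stand at 56581 bp or more in CINs and at 652 bp or less in non-CINs, whereas the 10 glial genes are covered in all 4 lists.

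All 10 glial genes carried H3K27ac in all 4 lists, CINs included, as did 56.7% of all protein-coding genes. The number of peaks in their windows was 145 and 107 in CINs against 171 and 126 in non-CINs, and the summed covered length was 178963 and 153435 bp against 213633 and 226412 bp, respectively. As a share of all H3K27ac length in the list this was 0.318% and 0.376% in CINs against 0.424% and 0.515% in non-CINs. Nfia alone held 50.3% to 54.2% of the summed length, and without it the sums were 81935 and 75864 bp against 105902 and 112522 bp. In length, with and without Nfia, and as a share of the list, non-CINs were thus higher without overlap.

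Gene by gene, 7 of 10 (Slc1a3, Slc1a2, Aldh1l1, Gfap, Aqp4, Fabp7 and Nfia) had a longer H3K27ac length in both non-CIN lists than in either CIN list, and none had the opposite order. Over all 14672 genes with an H3K27ac peak in at least 1 list, 18% had non-CINs above and 18.1% had CINs above; among the 12456 with a peak in all 4 lists the shares were 19.7% and 18.04%. With 2 lists against 2, an exact two-sided permutation test of a single gene cannot give p below 0.333. A limma fit across all genes, on log2 of covered length plus 200 bp with the replicate number as a block, called 0.143% of genes higher in non-CINs (21 genes) and 1.14% higher in CINs (167 genes) at a Benjamini-Hochberg adjusted p under 0.05. None of the 10 glial genes passed, the lowest adjusted p being 0.0854 for Aqp4. Without the replicate block limma called 3 genes, all higher in CINs. Fits with 1 library left out also had no replicate block and left 1 list in a group, so their counts are not given. At an unadjusted p under 0.05 the count was 4 of 10 (Aldh1l1, Slc1a3, Gfap and Aqp4), against 2652 of 14672. The fitted difference was above 0 for all 10, with a median of 0.35 on the log2 scale against -0.01 over all genes tested. The 4 H3K27ac lists differed in total length, and when each was scaled to equal total covered length the fit called 979 genes higher in non-CINs and 1059 higher in CINs, Slc1a3, Aqp4 and Aldh1l1 among the former (limma adjusted p 0.00048, 0.000925 and 0.00100).

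**Figure D2:**
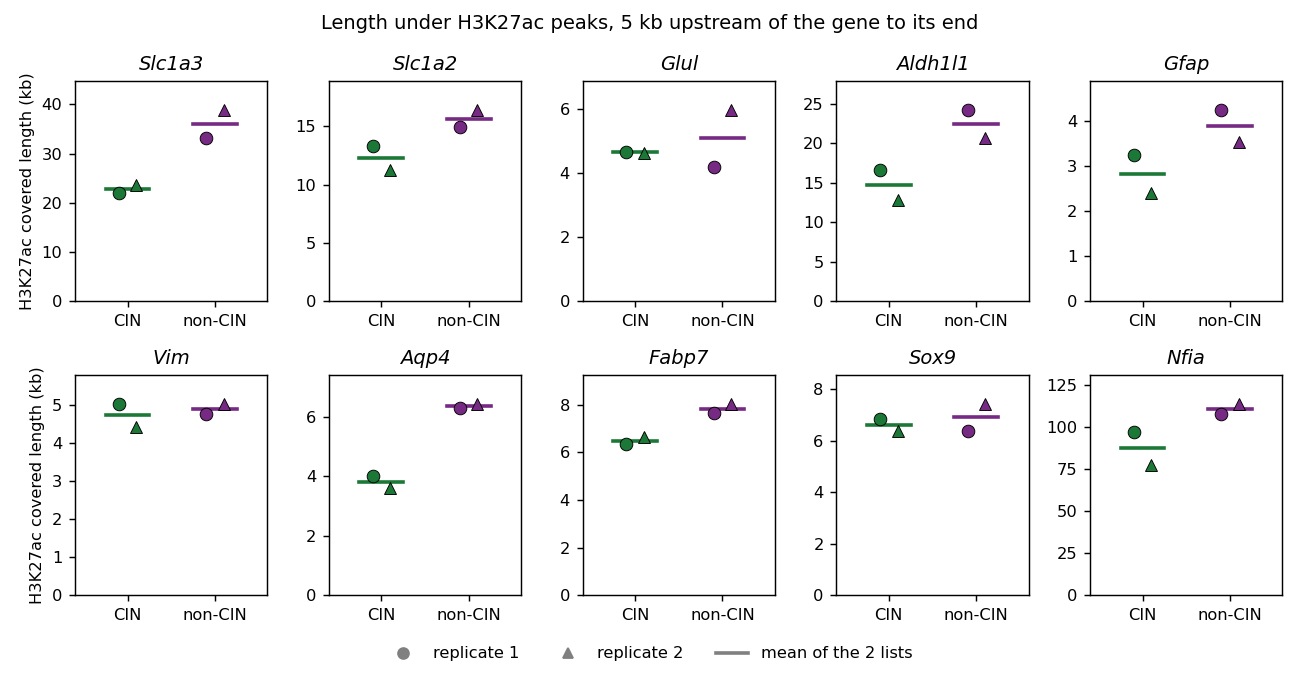
Length under H3K27ac peaks in kb (vertical axis, from 0, its own scale per gene) for each of the 10 genes, with 1 point per list and a line at the mean of the 2 lists of a population. Both non-CIN points lie above both CIN points for 7 genes, and the points of Glul, Vim and Sox9 overlap.

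**Figure D3:**
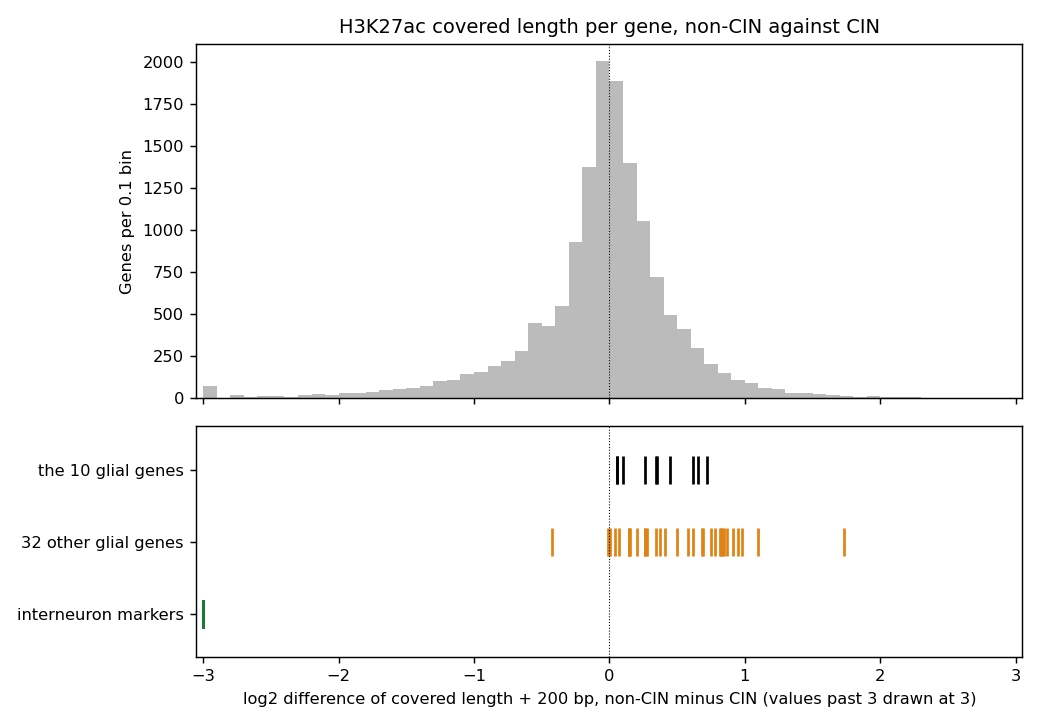
Fitted log2 difference of H3K27ac covered length, non-CIN minus CIN (horizontal axis, values past 3 drawn at 3): the histogram counts all 14672 genes tested per bin of 0.1, and the ticks below mark the 10 glial genes, 32 other glial genes and the interneuron markers. The 10 glial genes lie between 0.05 and 0.72, and the 8 interneuron markers with a value lie at the left edge.

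Slc1a3 and Slc1a2 encode the glutamate transporters of astrocytes, and Slc1a3 is already used by radial glia. Slc1a3 (chr15:8634124-8710764, minus strand) was covered over 21905 and 23715 bp in the CIN lists against 33243 and 38912 bp in the non-CIN lists. Its non-CIN length was 1.58-fold the CIN length (log2 difference 0.65 ± 0.22 SE, 95% interval 0.07 to 1.24, limma adjusted p = 0.232). The strongest Slc1a3 peak ranked at percentiles 86.4 and 90.8 in CINs against 93.4 and 98.7 in non-CINs, again without overlap, and in 3 of the 4 lists it was the peak over the transcription start. These ranks overlapped when the window began 20 kb upstream. The peak over the Slc1a3 start overlapped in length, at 3627 and 5229 bp in the CIN lists against 3441 and 5832 bp. A stretch of 5640 bp in intron 3, from 42546 to 48185 bp past the start, was covered in all 4 lists. In contrast, 803 bp in intron 2 and 722 bp in intron 3 were covered in both non-CIN lists but in no CIN list. Slc1a2 (chr2:102658659-102790784, plus strand) was covered over 13338 and 11282 bp in the CIN lists against 14914 and 16428 bp in the non-CIN lists. The difference was 0.35 ± 0.18 (SE) on the log2 scale (interval -0.13 to 0.83, limma adjusted p = 0.423). It fell to 0.23 without CIN replicate 2 and to 0.21 when peaks 500 bp or less apart were merged. With equal peak numbers per list the Slc1a2 lengths overlapped. The rank of the strongest Slc1a2 peak overlapped between populations, with percentiles 87.2 and 87.0 in CINs against 83.9 and 93.4 in non-CINs. The peak over the Slc1a2 start measured 3348 and 3584 bp in the CIN lists against 4028 and 7208 bp in the non-CIN lists. It ranked at percentiles 75.2 and 74.4 against 79.5 and 86.4, so that both non-CIN peaks were longer and ranked higher.

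Glul encodes glutamine synthetase, which turns the glutamate taken up into glutamine. Glul (chr1:153899944-153909723, plus strand) was covered over 4663 and 4636 bp in the CIN lists against 4192 and 5975 bp in the non-CIN lists, and these lengths overlapped (log2 difference 0.10 ± 0.17 SE, interval -0.35 to 0.56, limma adjusted p = 0.830). Its strongest peak, the one over the start in every list, ranked higher in CINs, at percentiles 90.7 and 90.4, than in non-CINs, at 80.0 and 81.9. That peak overlapped in length (4563 and 3648 bp in the CIN lists against 4192 and 5540 bp). Glul was the sole gene of the 10 with a rank above in both CIN lists. Its window overlaps the records of Teddm2, on the other strand, and Mir8114, whose signal cannot be separated from that of Glul.

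Aldh1l1 encodes a folate enzyme (10-formyltetrahydrofolate dehydrogenase) whose promoter is widely used to label astrocytes. The Aldh1l1 record (chr6:90486427-90600203, plus strand) was covered over 16563 and 12808 bp in the CIN lists against 24234 and 20723 bp in the non-CIN lists, a 1.53-fold difference of the means (log2 0.61 ± 0.18 SE, interval 0.14 to 1.09, limma adjusted p = 0.182). Its strongest peaks ranked at percentiles 98.2 and 94.5 in CINs against 96.7 and 95.6 in non-CINs, among the top ranks of both populations and overlapping. The record begins 64.4 kb upstream of the start of the principal transcript and overlaps the noncoding RNA Gm45901 there, and no list had a peak over the record's own start. Within 2.5 kb of the record's start the lengths overlapped (503 and 0 bp in the CIN lists against 364 and 0 bp). The log2 difference there was -0.16. From 5 kb upstream of the principal transcript to its end, Aldh1l1 was covered over 3407 and 2314 bp in the CIN lists against 5114 and 3423 bp in the non-CIN lists. The peak over that start ranked at percentiles 65.03 and 60.5 in CINs against 95.6 and 74.2 in non-CINs. It was 2301 and 2314 bp long in CINs against 2995 and 3423 bp long in non-CINs, so that rank and length at the start were both without overlap.

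Gfap and Vim encode intermediate filaments, Vim in radial glia and immature astrocytes and Gfap as astrocytes mature. Gfap (chr11:102887336-102900912, minus strand) was covered over 3238 and 2397 bp in the CIN lists against 4241 and 3524 bp in the non-CIN lists (log2 difference 0.44 ± 0.14 SE, interval 0.09 to 0.80, limma adjusted p = 0.189). With 1 library left out the Gfap difference ranged from 0.24 (without CIN replicate 2) to 0.65 (without CIN replicate 1). Part of the window is shared with Kif18b and the noncoding Gm26668. The strongest Gfap peak ranked at percentiles 75.9 and 70.2 in CINs against 90.7 and 82.4 in non-CINs. The peak over the start of the principal Gfap transcript was 1553 and 2132 bp long in the CIN lists against 3192 and 2779 bp in the non-CIN lists, and 391 bp over exon 1 and intron 1 were covered in both non-CIN lists alone. When peaks 500 bp or less apart were merged, the Gfap lengths overlapped. Vim (chr2:13573927-13582826, plus strand) was covered over 5032 and 4405 bp in the CIN lists against 4765 and 5018 bp in the non-CIN lists (log2 difference 0.05 ± 0.14 SE, interval -0.32 to 0.43, limma adjusted p = 0.904). The peak over the Vim start was 4640 and 4405 bp long in CINs against 4765 and 5018 bp, longer in both non-CIN lists, and 4348 bp of it were covered in all 4 lists. Its top percentiles, 87.0 and 80.8 against 95.2 and 84.8, overlapped between populations although the non-CIN value was higher within each replicate number.

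Aqp4 encodes the water channel of astrocyte endfeet. Aqp4 (chr18:15389496-15410982, minus strand) was covered over 3995 and 3589 bp in the CIN lists against 6296 and 6443 bp in the non-CIN lists, the largest fold of the 10 (1.68-fold, log2 0.72 ± 0.14 SE, interval 0.36 to 1.08, limma adjusted p = 0.0854). The strongest Aqp4 peak did not rank higher in non-CINs, with percentiles 80.1 and 76.5 in CINs against 78.0 and 78.2 in non-CINs. Peak length did differ, and the longest Aqp4 peak measured 1027 and 1278 bp in the CIN lists against 3404 and 5290 bp in the non-CIN lists. The peak over the principal start was 704 and 831 bp long in CINs against 1393 and 5290 bp. In CINs 6 and 5 separate peaks lay across the window, and in non-CINs 4 and 2. With the window begun 20 kb upstream, the Aqp4 difference was 0.98 on the log2 scale (limma adjusted p = 0.0353), and with peaks of -log10 q of at least 4 alone it was 1.13.

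Fabp7, encoding the brain fatty acid binding protein of radial glia and young astrocytes, had the largest share of its window covered. In Fabp7 (chr10:57784881-57788450, plus strand) this share was 74.1% and 77.6% in CINs against 89.1% and 94.0% in non-CINs, or 6352 and 6651 bp against 7639 and 8056 bp (log2 difference 0.26 ± 0.14 SE, interval -0.09 to 0.62, limma adjusted p = 0.411). The Fabp7 lengths overlapped when the 5 kb upstream was left out (log2 0.047) and at equal total covered length (log2 0.29), and with peaks of -log10 q of at least 4 alone the difference was larger (log2 0.53). A single peak over the Fabp7 start measured 5113 and 5159 bp in the CIN lists against 6157 and 8104 bp in the non-CIN lists. Its rank was high in both populations, at percentiles 94.8 and 97.4 in CINs against 95.3 and 97.0 in non-CINs, and overlapped.

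The bases before the RefSeq starts (GRCm38.p6) of Gfap and Fabp7 are shown because the former lies in a peak that ranked higher in non-CINs and the latter in a peak of like rank in both populations. Capitals mark matches, on either strand, to TGGGAA, the core bound by the Notch effector RBPJ, and to 3 further motifs of factors that act in astrocytes: the NFI half-site TTGGCA, the SOX motif CTTTGT and the STAT motif TTCNNNGAA. Each sequence held 1 match to TGGGAA and none to the others, and over the same 250 bases of all 32851 RefSeq promoters 21.6% held TGGGAA, 12.3% TTGGCA, 16.5% CTTTGT and 7.02% TTCNNNGAA.
Gfap promoter (chr11:102897201-102897450, minus strand): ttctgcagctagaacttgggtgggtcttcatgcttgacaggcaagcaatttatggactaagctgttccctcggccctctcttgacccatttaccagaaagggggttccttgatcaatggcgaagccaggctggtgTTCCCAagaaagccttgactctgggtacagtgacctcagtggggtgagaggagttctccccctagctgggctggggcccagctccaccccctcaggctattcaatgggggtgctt
Fabp7 promoter (chr10:57784673-57784922, plus strand): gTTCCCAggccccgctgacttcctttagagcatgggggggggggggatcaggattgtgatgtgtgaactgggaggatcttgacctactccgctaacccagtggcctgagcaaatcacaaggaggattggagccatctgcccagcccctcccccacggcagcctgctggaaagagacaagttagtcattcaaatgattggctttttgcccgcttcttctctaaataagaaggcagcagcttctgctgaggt

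Sox9 and Nfia encode transcription factors that start gliogenesis and are kept on in astrocytes. Sox9 (chr11:112782224-112787760, plus strand) was covered over 6849 and 6381 bp in the CIN lists against 6378 and 7443 bp in the non-CIN lists, without a separation (log2 difference 0.06 ± 0.15 SE, interval -0.34 to 0.46, limma adjusted p = 0.899). Its strongest peak ranked at percentiles 77.5 and 89.5 in CINs against 95.6 and 97.3 in non-CINs, without overlap. Without the 5 kb upstream of the gene the order of the Sox9 ranks turned, with both CIN lists above. A peak over the Sox9 start was present in CIN replicate 1 (4056 bp) and non-CIN replicate 2 (6404 bp) alone. Nfia (chr4:97772734-98118874, plus strand) has the longest window, 351141 bp, and held 77 and 56 peaks over 97028 and 77571 bp in CINs against 104 and 74 peaks over 107731 and 113890 bp in non-CINs. Although these lengths did not overlap, the fit gave the Nfia difference a wide interval (log2 0.35 ± 0.46 SE, interval -0.85 to 1.55, limma adjusted p = 0.779). That width depends on the variance trend over all genes, and without the trend the limma adjusted p was 0.539. The Nfia difference moved to 0.19 without CIN replicate 2, and its top percentiles were 98.3 and 97.2 against 98.1 and 99.0. Stretches of 6096 bp across the start of the Nfia record and 10172 bp over exon 1 to intron 2 of the principal transcript were covered in all 4 lists. Both stretches overlap the record of the protein-coding gene E130114P18Rik, on the other strand, whose signal cannot be separated from that of Nfia. The peak over the start of the Nfia record overlapped in length (6470 and 6096 bp in the CIN lists against 17060 and 6318 bp).

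In rank, then, 3 genes (Slc1a3, Gfap and Sox9) had both non-CIN percentiles above both CIN percentiles and 1 (Glul) the reverse. For comparison, 15.6% and 20.8% of all 14672 genes had non-CINs and CINs above. With 1 list against 2, orders without overlap are more common: without CIN replicate 1 the counts were 7 and 2, where 33.6% and 28.4% of all genes had these orders. Without CIN replicate 2 they were 4 and 3, against 22.0% and 46.2%, and Aldh1l1 and Aqp4 joined Glul with CINs above.

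**Figure D4:**
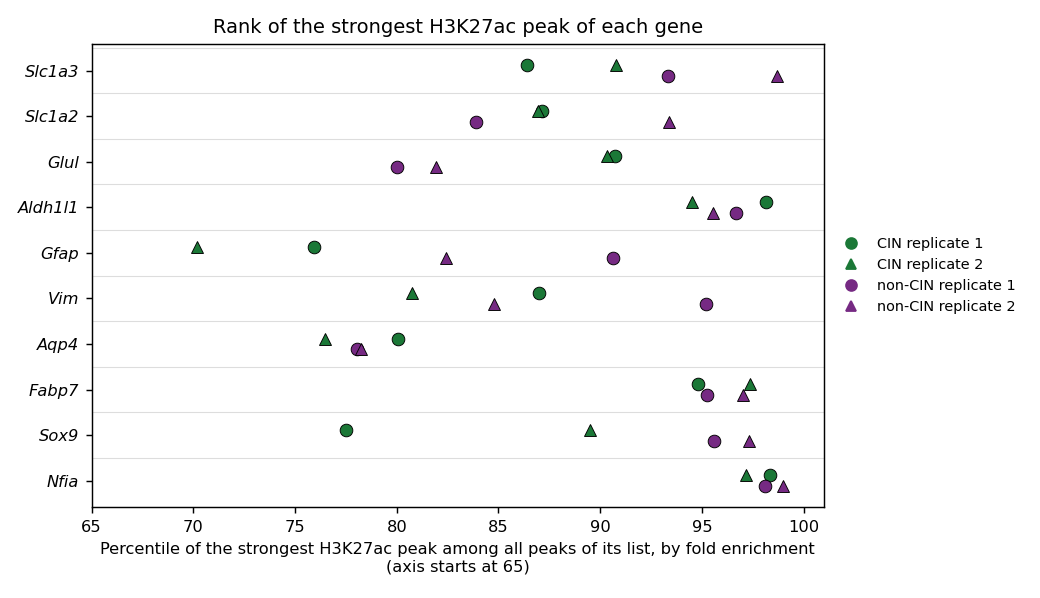
Percentile of the strongest H3K27ac peak of each gene among all peaks of its list, by fold enrichment over input (horizontal axis, starting at 65), with 1 point per list. Non-CIN points lie to the right of both CIN points for Slc1a3, Gfap and Sox9, and to the left for Glul.

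At the level of single bases, 128213 bp of the 10 windows were covered by H3K27ac in all 4 lists, 25389 bp under peaks of the non-CIN pair alone, and 1182 bp under peaks of the CIN pair alone. Over the windows of all protein-coding genes the latter lengths were 2712192 and 2848379 bp. The non-CIN bases lay at 9 of the 10 genes (10528 bp at Nfia, 6863 bp at Slc1a3, 4022 bp at Aldh1l1, 1646 bp at Aqp4 and 24 to 838 bp at Slc1a2, Gfap, Fabp7, Vim and Sox9), Glul had none, and the CIN bases lay at Nfia alone. Over all genes, 5179 windows had more bases of the non-CIN pair alone and 5151 had more of the CIN pair alone.

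Regions of a single population were then defined as merged peaks (gap of 500 bp or less) that no peak of the other population touched at the same replicate number, and that the replicates shared. There were 13 non-CIN regions in the 10 windows, out of 2775 in the genome: 6 at Nfia, 5 at Slc1a3, 1 at Slc1a2 and 1 at Aldh1l1. There was 1 CIN region, at Nfia, out of 4182. A single replicate gave 32 and 2 regions (replicate 2) or 37 and 13 (replicate 1), and an overlap of 50% between replicates left 6 and 1. None of the 14 was covered in any list of the other population. The non-CIN regions ranged from 32 to 1366 bp and ranked between percentiles 4.03 and 58.9 in their lists, and the CIN region, 761 bp in Nfia intron 2, ranked at 71.5 and 28.5. All but 2 lay in introns, the exceptions being 32 bp in exon 10 of Slc1a3 and the Aldh1l1 region, which lies upstream of the principal start (positions -35949 to -34584 relative to it) inside the Gm45901 record.

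The longest such region of each gene is shown here as the mm10 reference, plus strand, at most 300 bases from the middle of the longest stretch covered in both lists, because these bases fell under H3K27ac peaks of both replicates of 1 population and under none of the other. Capitals mark the motifs spelled out above. TGGGAA occurred in the Slc1a3 region, TTCNNNGAA in the non-CIN region of Nfia and TTGGCA in the CIN region of Nfia, and the Aldh1l1 and Slc1a2 sequences held none of the motifs. Over the central 300 bases of all 1178 non-CIN regions of that length or more in the genome, 33.9% held TGGGAA, 27.8% TTGGCA, 30.6% CTTTGT and 13.2% TTCNNNGAA, and over the 2549 CIN regions 26.2%, 23.5%, 37.9% and 11.3% did. A match is a run of letters, and nothing was measured of the factors.
Aldh1l1, non-CIN (chr6:90514990-90515289): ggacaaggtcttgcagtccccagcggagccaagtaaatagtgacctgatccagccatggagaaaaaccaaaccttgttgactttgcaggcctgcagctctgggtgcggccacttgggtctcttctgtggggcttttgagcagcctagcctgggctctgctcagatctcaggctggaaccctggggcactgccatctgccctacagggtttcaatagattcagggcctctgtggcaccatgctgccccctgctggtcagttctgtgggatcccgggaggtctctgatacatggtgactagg
Slc1a3 intron 3, non-CIN (chr15:8676339-8676638): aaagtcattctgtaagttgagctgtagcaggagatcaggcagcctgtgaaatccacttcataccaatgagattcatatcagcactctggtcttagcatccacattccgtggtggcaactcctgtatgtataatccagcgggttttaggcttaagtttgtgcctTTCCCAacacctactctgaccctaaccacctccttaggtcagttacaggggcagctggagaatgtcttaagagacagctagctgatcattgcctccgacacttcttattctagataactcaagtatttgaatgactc
Slc1a2 intron 7, non-CIN (chr2:102759655-102759954): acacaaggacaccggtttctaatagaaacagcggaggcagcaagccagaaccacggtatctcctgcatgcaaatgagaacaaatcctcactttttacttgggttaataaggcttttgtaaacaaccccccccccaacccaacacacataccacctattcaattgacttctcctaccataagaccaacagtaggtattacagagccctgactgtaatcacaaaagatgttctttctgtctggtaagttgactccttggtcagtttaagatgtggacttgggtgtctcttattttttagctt
Nfia intron 3, non-CIN (chr4:97968528-97968774): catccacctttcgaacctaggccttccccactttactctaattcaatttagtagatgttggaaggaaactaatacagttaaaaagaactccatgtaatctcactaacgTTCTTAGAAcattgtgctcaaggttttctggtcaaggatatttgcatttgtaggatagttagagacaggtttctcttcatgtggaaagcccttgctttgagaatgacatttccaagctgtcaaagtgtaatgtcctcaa
Nfia intron 2, CIN (chr4:97865746-97866045): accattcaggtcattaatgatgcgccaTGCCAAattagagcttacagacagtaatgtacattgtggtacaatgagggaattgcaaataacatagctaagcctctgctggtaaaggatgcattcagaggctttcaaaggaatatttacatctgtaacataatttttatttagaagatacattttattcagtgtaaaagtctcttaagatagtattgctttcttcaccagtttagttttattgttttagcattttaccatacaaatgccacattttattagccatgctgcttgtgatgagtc

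**Figure D5:**
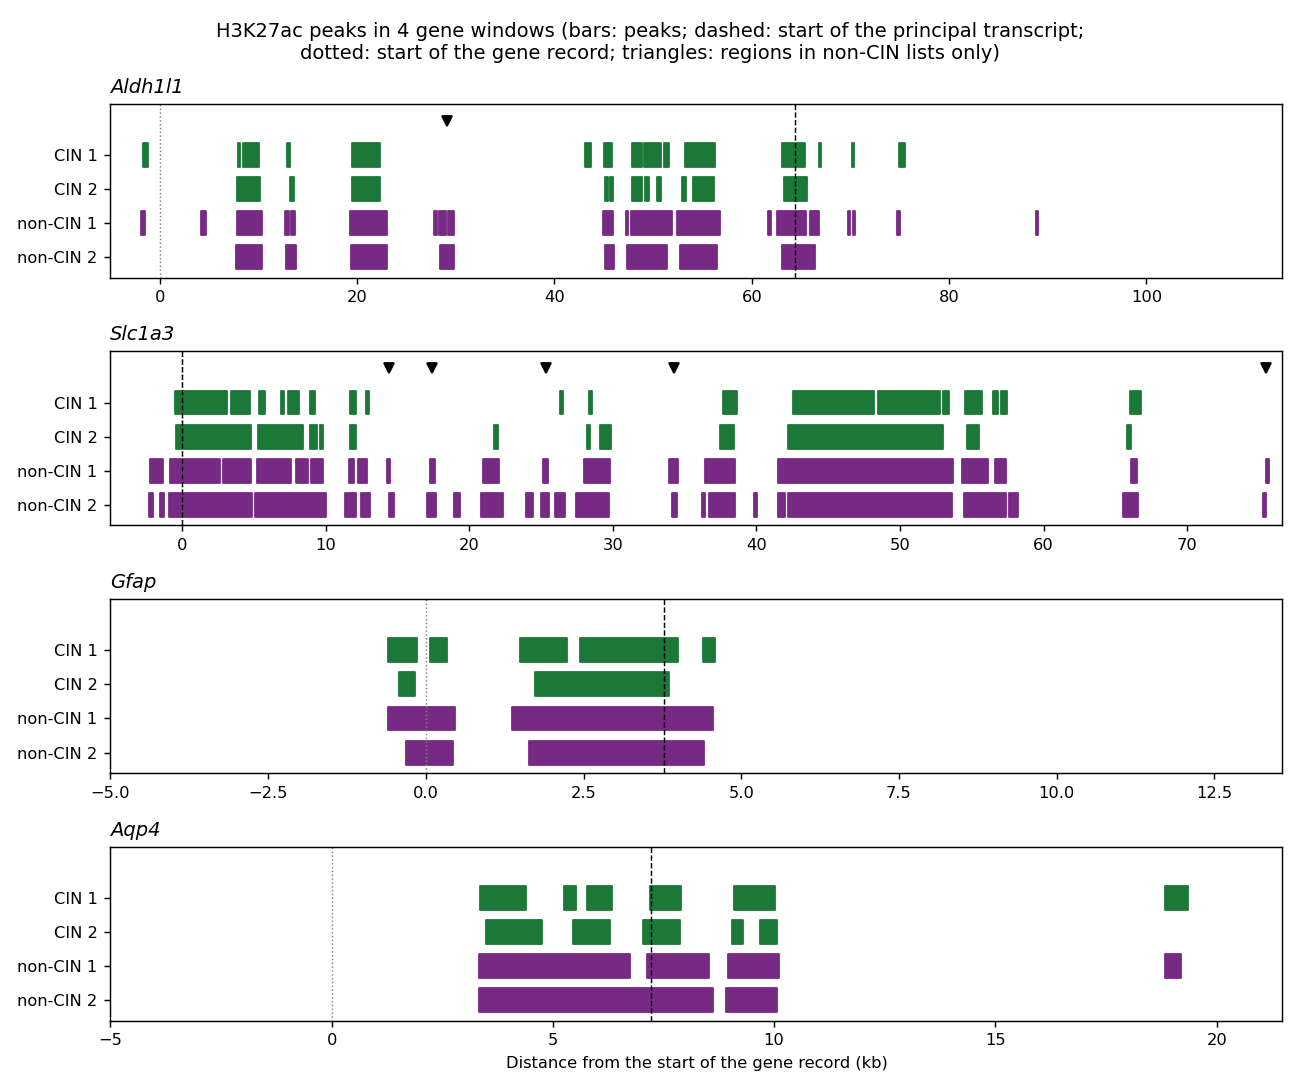
H3K27ac peaks of each list as bars along the windows of Aldh1l1, Slc1a3, Gfap and Aqp4 (horizontal axis, kb from the start of the gene record; dashed line, start of the principal transcript; triangles, regions in non-CIN lists only). At each gene drawn the longest peak of either non-CIN list is longer than that of either CIN list. The genes drawn had all separated in covered length, and among those not drawn the longest peaks overlapped at Sox9 and Glul. The share of all genes with this order of longest peaks was not measured. The number of bars differs both ways (18 and 12 in CINs against 20 and 24 in non-CINs at Slc1a3, 6 and 5 against 4 and 2 at Aqp4). The triangles mark 1 region at Aldh1l1 and 5 at Slc1a3.

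H3K27me3 peaks were found at 6 of the 10 genes, and 40.7% of all protein-coding genes had one in at least 1 list. Aqp4, Fabp7, Glul and Vim had no H3K27me3 peak in any list, no list had a peak over a start of any of the 10, and the summed length was 736 and 4597 bp in the CIN lists against 2631 and 2395 bp in the non-CIN lists, where H3K27ac covered 153435 bp or more. Gfap was the sole gene marked in all 4 lists, within its body (introns 3 to 6), over 736 and 2376 bp in the CIN lists against 400 and 516 bp in the non-CIN lists. It was the 1 gene whose H3K27me3 lengths did not overlap, with CINs above (log2 difference -1.24 ± 0.48 SE, interval -2.61 to 0.13, limma adjusted p = 0.528). It ranged from -1.97 (without CIN replicate 1) to -0.51 (without CIN replicate 2) with 1 library left out. Of 8941 genes with an H3K27me3 peak, 7.34% had CINs above and 11.1% non-CINs above, and at equal total covered length these shares were 15.2% and 9.38%. The Gfap peaks stood at percentiles 29.8 and 45.2 in CINs against 41.8 and 50.8 in non-CINs, which overlapped. With peaks of -log10 q of at least 4 alone the lengths overlapped and the log2 difference reversed to 0.92. Limma called 0% of the 8941 genes in either direction, although 894 had an unadjusted p under 0.05.

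Slc1a2 and Sox9 had H3K27me3 in 3 lists each, all but CIN replicate 1, and the length difference of neither passed the limma threshold (adjusted p 0.804 and 0.748). Slc1a2 was covered over 1161 bp in CIN replicate 2 and 264 and 849 bp in non-CINs, between positions -1570 and 2090 relative to its start. Sox9 was covered over 1060 bp in CIN replicate 2 and 806 and 1030 bp in non-CINs. In top percentile both genes had non-CINs above, where CIN replicate 1, without a peak, counted as 0. Slc1a2 stood at 36.6 in CIN replicate 2 against 48.7 and 52.6 in non-CINs, and Sox9 at 40.15 against 60.6 and 40.19, the latter a near tie. With peaks of -log10 q of at least 4 alone neither gene separated in rank. Over all genes with an H3K27me3 peak, 13.9% had non-CINs above and 9.62% CINs above in rank. Aldh1l1, Slc1a3 and Nfia had a single H3K27me3 peak each, of 370, 319 and 472 bp, all in non-CIN replicate 1. Bases under both marks in the same list occurred at Slc1a3, Slc1a2, Sox9 and Nfia, from 264 to 1060 bp where present, with Sox9 at 1060 bp in CIN replicate 2 and 806 and 680 bp in non-CINs. No H3K27me3 region of a single population fell in the 10 windows, out of 710 CIN and 1286 non-CIN regions in the genome.

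Other genes of the same cell types were read from a list of 32. All 32 had an H3K27ac peak in at least 1 list, 31 of them in CIN replicate 1 and 32 in the other lists. In covered length 23 of 32 had both non-CIN lists above both CIN lists and 1 had the reverse, against 18% and 18.1% of all genes, and in top percentile the counts were 19 and 0, against 15.6% and 20.8%. The median log2 difference over the 32 was 0.54, and 1 gene passed the limma threshold. That gene, Slc7a10, encoding the astrocyte transporter of small neutral amino acids, was covered over 371 and 402 bp in the CIN lists against 1751 and 1747 bp in the non-CIN lists (log2 1.73, limma adjusted p = 0.0423). The call was lost in most alternatives, among them the fit without the replicate block (limma adjusted p = 0.209). The next largest differences were those of Chrdl1, a secreted BMP antagonist (log2 1.09, limma adjusted p = 0.332), the zinc transporter Slc39a12 (log2 0.98, adjusted p = 0.0989) and Mfge8, a secreted bridging protein for phagocytosis (log2 0.95, adjusted p = 0.0821). With peaks of -log10 q of at least 4 alone the values of Slc39a12 and Mfge8 were 1.83 and 2.14, and Mfge8 was 0.55 after merging. Slc39a12 was 0.44 within 2.5 kb of the start and 0.58 with a pseudocount of 1000 bp. Mfge8 passed the limma threshold at equal peak numbers (adjusted p = 0.0397), and Slc39a12 and Mfge8 both did at equal total covered length (adjusted p 0.00859 and 8.07e-05). Chrdl1 was covered over 200 and 323 bp in the CIN lists against 1334 and 422 bp in the non-CIN lists, and its log2 difference was 0.44 without non-CIN replicate 1 and 1.75 without non-CIN replicate 2. Nfix, a relative of Nfia, was the gene with CINs above, at 72950 and 49144 bp against 45720 and 43523 bp (log2 -0.42, limma adjusted p = 0.591), and its difference was -0.14 without CIN replicate 1 and -0.71 without CIN replicate 2.

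H3K27me3 was found at 16 of the 32 genes, against 40.7% of all genes. Of these 16, no gene was longer in both non-CIN lists and 2 were longer in both CIN lists, where 11.1% and 7.34% of all genes with such a peak had these orders. In rank 1 of the 16 had non-CINs above and 5 had CINs above, against 13.9% and 9.62%. The 2 genes longer in CINs were Gja1, the gap junction gene connexin 43, at 1562 and 2838 bp in CINs against no peak in non-CINs (limma adjusted p = 0.193), and Nfib, at 723 and 1705 bp against no peak (adjusted p = 0.316). At Gja1 the H3K27ac length was higher in non-CINs, with 2902 and 2433 bp in the CIN lists against 5044 and 4627 bp in the non-CIN lists (log2 0.82, limma adjusted p = 0.0708), whereas at Nfib it overlapped, with 90302 and 63119 bp against 80041 and 78345 bp (log2 0.07, limma adjusted p = 0.960). Gja1 and Nfib were chosen for mention after their values were seen.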

How the data were processed

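Peak lists of 8 samples were used (H3K27ac and H3K27me3, CINs and non-CINs, 2 replicates each), and 4 input samples have no list and were not analysed here. Per the labels and the study's methods, reads were mapped by the authors with BWA 0.7.15 (mm10), filtered with SAMtools, and turned into broad peaks per replicate against matched input with MACS2 (2.2.7 in the submitters' processing notes) at a q and broad cutoff of 0.01. The deposited lists give a score per peak, the fold (a ratio of ChIP to input) and its −log10 p and −log10 q; score and −log10 p were not used. Broad peaks depend on depth, which the lists do not give, so lengths and ranks within a list were compared, not folds between lists. Tissue was pooled and the 2 replicates were independent experiments. With the replicate block, p-values measure how alike the population difference was in the 2 replicates. The variance behind them is moderated toward a trend over all genes.

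Windows came from GENCODE vM21 protein-coding records. Covered length was tested with limma 3.58.1 in R 4.3.3 on log2(bp + 200), with eBayes trend, replicate number as a block (1 residual degree of freedom per gene) and genes with a peak in at least 1 list of the mark. The deviations of same-numbered lists were correlated (correlation across genes 0.34 for H3K27ac over 14672 genes and 0.60 for H3K27me3 over 8941), and the block follows the study's replicate-wise comparison. Percentiles count ties by their middle rank, and a window without a peak in a list counts as 0. Interval functions and the fit were checked against bedtools 2.31.1 or tested on simulated data. Sequences came from GRCm38 and RefSeq; 8 of the 10 genes were matched to a RefSeq promoter entry, and Sox9 and Aqp4 were not.

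All 10 genes are named with their H3K27ac length and rank; of the 32 other glial genes, those without overlap in H3K27ac length are counted and the 4 largest log2 differences per direction named. The interneuron list had 1 further marker that is not reported here and is left out of its counts and sums. The genes, lists and tests were chosen with earlier results of these data known. Alternatives were the block, each library left out (fitted without the block), the variance trend, pseudocount, filter, scaling, q threshold, windows, merging and overlap. Equal peak numbers per list and the principal transcript's window were added after seeing the data.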

Additional observations from a re-analysis of the deposited data

How the results depend on the processing

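Without the replicate block, limma called 3 genes for H3K27ac instead of 188. Counted by the same direction within both replicate numbers, 7 glial genes had a longer H3K27ac length in non-CINs. This count could not fall below 7, since every gene without overlap also meets this looser rule. Over all genes the rule gave 29.2% with non-CINs and 29.8% with CINs above. The H3K27ac count of genes called was 6 with a pseudocount of 50 bp, 11 with peaks in at least 2 lists, 0 without trend, without a filter or without the 5 kb upstream, 16 at −log10 q of at least 4, 434 with 20 kb upstream, 123 within 2.5 kb of the start, 33 after merging, 2038 at equal total covered length and 0 to 626 with a library left out (0 without either non-CIN replicate, 626 without CIN replicate 2). For H3K27me3 it was 0 as reported, 719 with no filter (void, since most residual variances are 0), 149 at equal total length, 9 at −log10 q of at least 4, 259 with 20 kb upstream and 0 to 689 with a library left out (536 without non-CIN replicate 1, 689 without non-CIN replicate 2). Regions of a single population in the windows numbered 22 without merging, 9 at −log10 q of at least 4, 7 at 50% overlap and 34 to 50 from a single replicate for H3K27ac, and 0 to 6 for H3K27me3 (2 and 6 from a single replicate). H3K27ac length separated 7 of 10 genes, and 6 to 9 under every alternative, with Vim (without CIN replicate 2) and Sox9 and Glul (without non-CIN replicate 2) then higher in CINs Aldh1l1 and Aqp4 not separated within 2.5 kb of the start of the gene record, Fabp7 not separated without the 5 kb or at equal total length, Gfap not after merging and Slc1a2 not at equal peak numbers; H3K27ac rank separated 4, and 6 to 9 with a library left out. With a library left out, the orders without overlap also rose over all genes, to 22.4% to 45.2% with non-CINs and 23.1% to 49.6% with CINs above in H3K27ac length and to 21.5% to 41.8% and 26.99% to 47.3% in rank, and in the other alternatives both shares of length lay between 14.2% and 29.8%. H3K27me3 length separated 1 gene, 0 at −log10 q of at least 4 or within 2.5 kb of the start and 1 to 4 with a library left out; rank separated 2, then 0, 1 (no 5 kb upstream), 1 (equal peak numbers, added after seeing the data) and 2 to 5. The sign of the log2 difference reversed for H3K27ac at Aldh1l1 (-0.16) and Glul (-0.026) within 2.5 kb, at Vim without the 5 kb (-0.060) and at Sox9 after merging (-0.038), and for H3K27me3 at Gfap (0.92) at −log10 q of at least 4. With a library left out the range was -0.050 to 0.17 at Sox9, -0.14 to 0.35 at Glul and -0.040 to 0.14 at Vim for H3K27ac, and -0.96 to 1.80 at Slc1a2 and -0.18 to 2.48 at Sox9 for H3K27me3. Of the log2 values of the 10 genes under an alternative, 158 of 169 for H3K27ac and 82 of 92 for H3K27me3 kept direction and side of the threshold. None of the 10 passed the threshold in the main fit, so keeping its side meant only that a gene was again not called. The block, trend and filter alternatives leave the log2 value as it is, so these tallies do not measure stability. The 3 H3K27me3 values of Aldh1l1, Slc1a3 and Nfia, which had a peak in non-CIN replicate 1 alone, became 0 without that list. They grew without non-CIN replicate 2. The cause of these changes was not tested.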

Other observations

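The flanks of the 10 genes, 50 kb on either side of each window, were measured in the same way. Upstream, 9 genes had an H3K27ac peak in the flank and 6 of them (Aldh1l1, Slc1a2, Aqp4, Fabp7, Glul and Nfia) had more covered length in both non-CIN lists than in either CIN list, and downstream this held for 5 of 10 (Slc1a3, Gfap, Aqp4, Fabp7 and Sox9). None had CINs above on either side. Over all genes with a peak in the flank, 18.8% upstream and 18.6% downstream had non-CINs above, and 17.9% and 17.8% had CINs above. Many flanks hold other genes, such as Klf15 upstream of Aldh1l1, Pamr1 upstream of Slc1a2 and Pkib upstream of Fabp7.

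Of the 3 genes whose lengths overlapped within their own window, Sox9 and Glul had 1 flank each with non-CINs above, and Vim overlapped in both flanks. Downstream of Sox9, the flank of which holds no other protein-coding gene, the lists were covered over 5139 and 4406 bp in the CIN lists against 5862 and 6610 bp in the non-CIN lists. Upstream of Glul, in a flank that also holds Teddm1a, Teddm1b and Teddm2, they were covered over 436 and 434 bp against 609 and 637 bp, and downstream the values overlapped (466 and 756 bp against 633 and 625 bp). Aqp4 had separated in its own window, and upstream of it, in a flank that also holds Chst9, CINs had 0 and 660 bp and non-CINs 3181 and 2400 bp, of which 1055 bp were shared by the non-CIN lists alone.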
